A study of Mus musculus with 9 samples.

Results

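The 8 genes described here encode RNA-binding proteins and RNA granule components of the lens, namely *Tdrd7*, *Caprin2*, *Celf1*, *Rbm24*, *Carhsp1*, *Stau1*, *Stau2* and *Ddx6*. They were chosen by symbol from proteins tied to cataract or eye development and from components of cytoplasmic granules, out of 47729 genes in the deposited tables, and all 8 were among the 15557 genes expressed highly enough to test. RNA-Seq measured their transcripts in whole newborn (P0) lenses of wild type *FVB/N* mice and of mice hemizygous for either the *P0-3.9GFPCre* or the *Le-Cre* transgene, both on the *FVB/N* strain. Each genotype had 3 pools, and a pool held 6 lenses from 3 mice. Both transgenes express CRE recombinase and GFP under a fragment of the *Pax6* P0 promoter, which is active in the lens and the neighbouring surface ectoderm, and the labels name no floxed allele in any group. The transgene, its insertion site and the separate breeding of each line cannot be told apart in these comparisons. The *Le-Cre* mice descend from 1 founder.

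Lens fiber cells lose their nuclei and other organelles as they mature and keep making crystallins from messages that were transcribed earlier. How long a message is stored, moved, translated or degraded is therefore set in large part by the proteins that bind it, and many of those proteins gather in granules in the cytoplasm. Processing bodies hold mRNA that is repressed or being decapped, stress granules hold stalled translation complexes, and Staufen granules carry mRNA through the cell. Loss of several of these proteins causes cataract or small eyes in vertebrates.

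Total expected counts, the RSEM estimates of reads per gene, ranged from 20670968 to 28098059 per pool, and the 8 genes together took between 0.512% and 0.564% of them. Values are given as CPM, counts per 1e6 of the TMM-normalized library, for comparisons of a gene between pools, and as TPM, which is also scaled for transcript length, for comparisons between genes. The lens identity of the pools was borne out by the lens markers, which summed to between 217862 and 267843 TPM, and the corneal and skin keratins *Krt12* and *Krt14* were at 0 in every pool. Vessel markers summed to between 18.9 and 38.7 TPM and red blood cell markers to between 85.2 and 263 TPM, with ranges that overlapped among the 3 lines. Macrophage, retina and muscle markers summed to at most 1.71, 3.16 and 0.19 TPM. Markers of the lens epithelium (*Foxe3*, *Pax6* and *Cdh1*) did differ, at 147 to 157 TPM in *Le-Cre* against 159 to 164 TPM in *FVB/N* and 160 to 174 TPM in *P0-3.9GFPCre*, so that every *Le-Cre* pool was lowest. Of these 3 genes, *Cdh1*, the epithelial cadherin, was lower in CPM in all 6 Cre pools than in all 3 *FVB/N* pools, as were 1.85% of all tested genes. It stood at 123 to 137 CPM in *Le-Cre* and 128 to 141.1 CPM in *P0-3.9GFPCre*, against 141.3 to 152 CPM in *FVB/N*. Its log2 fold change was −0.14 in *Le-Cre* (adjusted p = 0.656 by edgeR) and −0.10 in *P0-3.9GFPCre* (adjusted p = 0.825 by edgeR). In TPM only the *Le-Cre* pools of *Cdh1* lay below *FVB/N*. In CPM *Foxe3* and *Pax6* overlapped *FVB/N* in both lines. In whole lenses, fewer cells of a type and less RNA per cell cannot be told apart. Transcripts of *Uty*, *Kdm5d*, *Eif2s3y* and *Ddx3y* on the Y chromosome summed to 121 to 193 CPM in *FVB/N*, 1.66 to 135 CPM in *P0-3.9GFPCre* and 0.602 to 74.2 CPM in *Le-Cre*, so their level moved with the line. The sex of the pooled mice is not given in the sample titles, and the mix of sexes in the pools cannot be fully told apart from the line.

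*Tdrd7* was the most abundant of the 8 transcripts in every line and *Stau2* the least. In *FVB/N* lenses, *Tdrd7* averaged 862 ± 33.8 TPM (SD, n = 3 pools) and *Caprin2* averaged 533 ± 16.7 TPM, which placed them 69th and 121st among all genes by TPM level. *Carhsp1* followed at 222 ± 10.3 TPM. *Rbm24* at 134 ± 9.51 TPM and *Celf1* at 127 ± 0.431 TPM came next, and their pools overlapped. A wide step of 5.79-fold in TPM then separated *Celf1* from *Stau1*. *Stau1* at 21.9 ± 1.34 TPM and *Ddx6* at 20.7 ± 1.32 TPM overlapped in turn, and *Stau2* lay below both at 13.1 ± 1.08 TPM. The same order of mean TPM held in both Cre lines, where *Ddx6* and *Stau2* also overlapped. In *P0-3.9GFPCre*, but not in *FVB/N* or *Le-Cre*, the *Rbm24* pools did not overlap the *Celf1* pools.

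None of the 8 genes changed at the cutoff, which asked for both a 1.5-fold difference and an adjusted p no higher than 0.05 in edgeR's quasi-likelihood test. The share of all tested genes past that cutoff was 0.0643% in *Le-Cre* against *FVB/N*, 0% in *P0-3.9GFPCre* against *FVB/N* and 0% in *Le-Cre* against *P0-3.9GFPCre*. At an unadjusted p under 0.05, the 8 genes gave 1 higher (*Caprin2*) and 0 lower in *Le-Cre* against *FVB/N*, where 7.94% of all tested genes passed (3.6% higher and 4.35% lower). They gave 1 higher (*Caprin2*) and 1 lower (*Ddx6*) in *P0-3.9GFPCre* against *FVB/N*, where 6.81% passed (3.41% higher and 3.41% lower). They gave 1 higher (*Celf1*) and 0 lower in *Le-Cre* against *P0-3.9GFPCre*, where 7.88% passed (3.63% higher and 4.25% lower). By DESeq2's Wald test the counts at an unadjusted p under 0.05 were 2 (*Caprin2* and *Carhsp1*), 2 (*Caprin2* and *Ddx6*) and 1 (*Celf1*) in the same order, against 6.63%, 5.98% and 6.79% of all genes with a DESeq2 p. *Caprin2* stayed under 0.05 in both comparisons with *FVB/N* under all 11 alternatives and with each of the 9 pools left out. *Ddx6* missed 0.05 in 3 of the 11 alternatives and without 4 of the 9 pools, namely replicates 2 and 3 of *FVB/N* and of *P0-3.9GFPCre*. *Celf1* missed it in 5 of the 11 alternatives and without 5 of the 9 pools, namely *FVB/N* replicate 1, *P0-3.9GFPCre* replicates 1 and 2 and *Le-Cre* replicates 2 and 3. The median log2 fold change of the 8 genes was −0.02, −0.05 and −0.01 in these comparisons, beside medians within 0.01 of 0 over all tested genes. The 95% interval of the log2 fold change stayed within ±0.58, the 1.5-fold cutoff, for all 8 genes in all 3 comparisons, so that a change of 1.5-fold or more lay outside every interval. Both Cre lines were compared with the same 3 *FVB/N* pools.

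**Figure D1:**
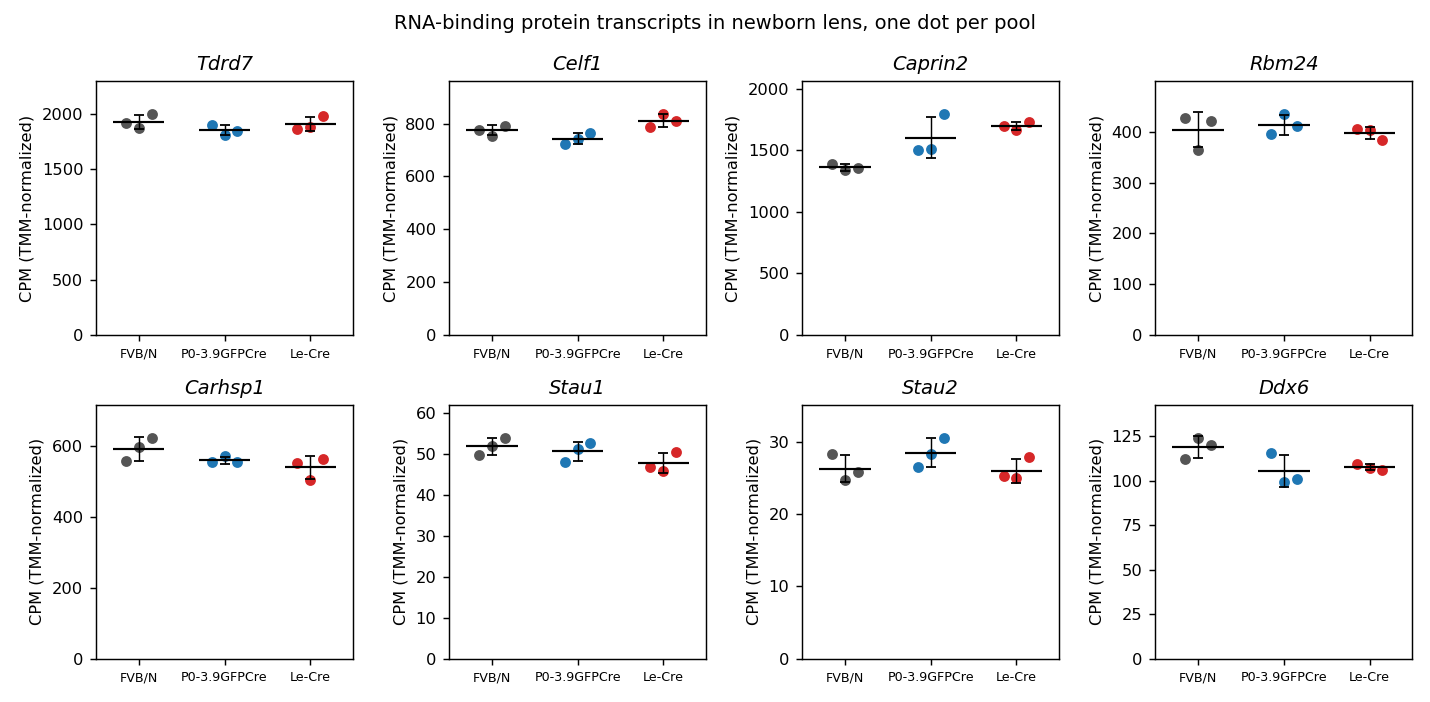
CPM (TMM-normalized, linear axes from 0) of the 8 genes in the 3 lines, with one dot per pool, a horizontal line at the mean and bars for the SD of 3 pools. The *Caprin2* dots of both Cre lines sit at 1505 CPM or more, above all *FVB/N* dots, whereas the dots of *Tdrd7*, *Rbm24*, *Carhsp1*, *Stau1* and *Stau2* overlap among the lines.

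*Caprin2* was the one gene of the 8 whose CPM was higher in all 6 Cre pools than in all 3 *FVB/N* pools, a pattern seen in 1.66% of all tested genes, while 1.85% were lower in all 6. It encodes a caprin family RNA-binding protein of lens fiber cells, and its loss in the mouse lens alters the lens center and can leave the lens attached to the cornea. The gene lies at chr6:148842492-148896237 on the minus strand (GRCm38). The *FVB/N* pools held 1389, 1336 and 1357 CPM of *Caprin2* in replicates 1 to 3. The *P0-3.9GFPCre* pools held 1505, 1511 and 1793 CPM. The *Le-Cre* pools held 1694, 1663 and 1727 CPM. The *Le-Cre* pools lay close together and clear of *FVB/N*, whereas in *P0-3.9GFPCre* replicate 3 stood above the other two and above every *Le-Cre* pool. The highest *Caprin2* levels came in *P0-3.9GFPCre* replicate 3 and *Le-Cre* replicates 3 and 1. Their Y-linked transcripts summed to 1.66, 0.602 and 1.55 CPM, against 56.2 to 193 CPM in the other pools. The part of sex in these *Caprin2* levels was not tested on its own. Comparisons of the lines with the Y-linked share in the model are given below.

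*Caprin2* averaged 1361 ± 26.8 CPM (SD, n = 3 pools) among *FVB/N* pools and 1694 ± 31.9 CPM among those of *Le-Cre*, a ratio of 1.25 (95% interval 1.11 to 1.39). The log2 fold change was 0.32 with a standard error of 0.07, and the adjusted p was 0.240 in edgeR's quasi-likelihood test, where *Caprin2* ranked 72nd of all tested genes by p. DESeq2's Wald test gave the same comparison an adjusted p of 0.00304, still at a fold below the cutoff. In *P0-3.9GFPCre* the mean was 1603 ± 164 CPM, a ratio of 1.18 to *FVB/N* (95% interval 1.05 to 1.32). This was a log2 fold change of 0.24, with adjusted p-values of 0.632 by edgeR and 0.0849 by DESeq2. The difference between the Cre lines was a log2 fold change of 0.08 (95% interval −0.08 to 0.24), less than the spread of the *P0-3.9GFPCre* pools. Without *P0-3.9GFPCre* replicate 3, the log2 fold change against *FVB/N* was 0.15 (adjusted p = 0.968 by edgeR), and that of *Le-Cre* against *P0-3.9GFPCre* was 0.17 (adjusted p = 0.668 by edgeR). With the Y-linked share added to the model, the log2 fold change in *Le-Cre* was 0.20 (adjusted p = 0.950 by edgeR). In *P0-3.9GFPCre* it was then 0.17 (adjusted p = 0.804 by edgeR). On the TPM scale the pools of both Cre lines also lay above *FVB/N*, from 599 to 737 TPM against 521 to 552 TPM. The weighted transcript length of *Caprin2*, RSEM's average over its 11 transcripts, differed from *FVB/N* by −1.48% for *Le-Cre* and by 0.732% for *P0-3.9GFPCre*.

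**Figure D2:**
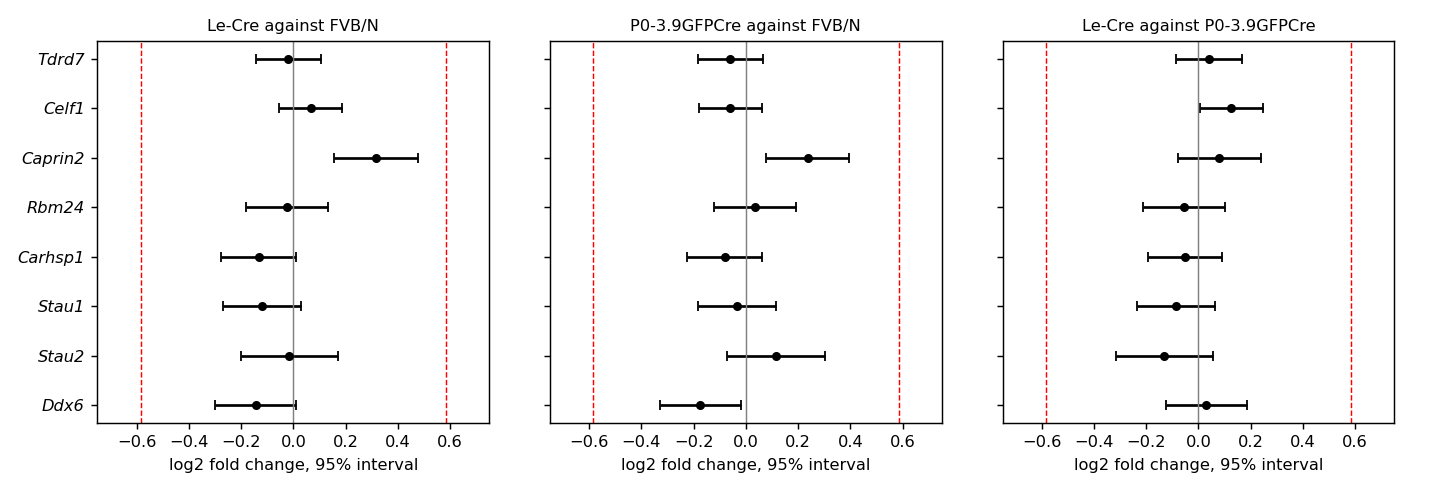
Log2 fold changes of the 8 genes (dots) with 95% intervals (bars) from edgeR in the 3 comparisons, with the 1.5-fold cutoff at ±0.58 as dashed lines. The *Caprin2* interval lies above 0 in both comparisons with *FVB/N*, spanning 0.16 to 0.48 for *Le-Cre* and 0.08 to 0.40 for *P0-3.9GFPCre*, and no interval reaches a dashed line.

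*Tdrd7*, a tudor domain protein of lens RNA granules whose loss causes cataract and glaucoma in mice and cataract in people, was steady across the lines. It lies at chr4:45965334-46034761 on the plus strand. *Tdrd7* stood at 1916, 1874 and 1996 CPM in the *FVB/N* pools, the *P0-3.9GFPCre* pools 1900, 1809 and 1845 CPM, and the *Le-Cre* pools 1859, 1876 and 1976 CPM. The 3 groups overlapped throughout. The log2 fold change was −0.02 in *Le-Cre* (95% interval −0.14 to 0.11) and −0.06 in *P0-3.9GFPCre* (95% interval −0.18 to 0.07), with edgeR adjusted p-values of 0.967 and 0.874. Each pool held at least 37336 expected counts of *Tdrd7*, the highest minimum of the 8 genes.

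*Celf1* binds GU-rich elements and controls splicing, decay and translation, and its loss from the lens causes cataract. The gene is at chr2:90940382-91019497 on the plus strand. The *FVB/N* pools held 776, 754 and 793 CPM of *Celf1*. The *P0-3.9GFPCre* pools held 723, 742 and 766 CPM, and the *Le-Cre* pools 788, 836 and 809 CPM. The Cre lines stood apart from each other, with every *Le-Cre* pool above every *P0-3.9GFPCre* pool, and both overlapped *FVB/N*. Of the 8 genes, this was the one whose pools did not overlap between the Cre lines, against 14.1% of all tested genes (6.74% higher and 7.37% lower in *Le-Cre*). *Le-Cre* exceeded *P0-3.9GFPCre* by a log2 fold change of 0.12 (95% interval 0.00431 to 0.25, adjusted p = 0.613 by edgeR), a ratio of 1.09. Against *FVB/N*, *Celf1* had a log2 fold change of 0.07 for *Le-Cre* and −0.06 for *P0-3.9GFPCre*, with edgeR adjusted p-values of 0.827 and 0.871.

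*Rbm24*, which stabilizes target messages and promotes crystallin synthesis in the lens, has a single transcript in the tables and lies at chr13:46418434-46431095 on the plus strand. *Rbm24* was at 428, 364 and 421 CPM in the *FVB/N* pools, the *P0-3.9GFPCre* pools 396, 434 and 410 CPM, and the *Le-Cre* pools 405, 404 and 384 CPM. The lowest *FVB/N* pool lay below all Cre pools and the highest lay above all but one of them. The log2 fold change was −0.02 in *Le-Cre* (95% interval −0.18 to 0.13) and 0.03 in *P0-3.9GFPCre* (95% interval −0.12 to 0.19).

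*Carhsp1* is a cold-shock domain protein that binds and stabilizes mRNA. It is encoded at chr16:8658580-8672155 on the minus strand. Levels of *Carhsp1* were 557, 597 and 624 CPM in the *FVB/N* pools, the *P0-3.9GFPCre* pools 555, 571 and 555 CPM, and the *Le-Cre* pools 553, 504 and 565 CPM. The pools of both Cre lines lay in the lower part of the *FVB/N* range or below it. The log2 fold change was −0.13 in *Le-Cre* (95% interval −0.28 to 0.01, adjusted p = 0.675 by edgeR) and −0.08 in *P0-3.9GFPCre* (95% interval −0.22 to 0.06, adjusted p = 0.846 by edgeR).

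*Ddx6* is the DEAD-box helicase that represses translation and activates decapping in processing bodies, and it lies at chr9:44604892-44640731 on the plus strand. The *FVB/N* pools held 112, 124 and 120.2 CPM of *Ddx6*. The *Le-Cre* pools held 109, 107 and 106 CPM, and the *P0-3.9GFPCre* pools 116, 99.2 and 101 CPM. All *Le-Cre* pools lay below all *FVB/N* pools, by a gap of under 3 CPM at the nearest, while *P0-3.9GFPCre* replicate 1 lay inside the *FVB/N* range. With *Caprin2* higher and *Ddx6* lower, 2 of the 8 genes had pools that did not overlap between *Le-Cre* and *FVB/N*, against 13.5% of all tested genes (6.46% higher and 7.03% lower). In *P0-3.9GFPCre* against *FVB/N* it was 1 of 8 (*Caprin2*), against 12% of all tested genes (6.02% higher and 5.94% lower).

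*Ddx6* had a log2 fold change of −0.14 in *Le-Cre* (95% interval −0.30 to 0.01, adjusted p = 0.678 by edgeR). In *P0-3.9GFPCre* it was −0.17 (95% interval −0.33 to −0.02, adjusted p = 0.670 by edgeR). Left-out pools moved the latter between −0.25 and −0.13. In TPM the *Ddx6* pools of each Cre line overlapped those of *FVB/N*. The lens epithelium markers had a lower summed TPM in *Le-Cre*, and the part of this in the *Caprin2*, *Ddx6* and *Hspb1* differences was not tested.

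The Staufen proteins bind double-stranded RNA, and *Stau1* acts with *Upf1* in the decay of its targets while *Stau2* is best known for RNA transport in neurons. *Stau1* lies at chr2:166947549-166996299 and *Stau2* at chr1:16228674-16520112, both on the minus strand. The *FVB/N* pools held 49.8, 52.0 and 53.9 CPM of *Stau1*, the *P0-3.9GFPCre* pools 48.1, 51.3 and 52.7 CPM, and the *Le-Cre* pools 46.9, 45.9 and 50.5 CPM. *Le-Cre* tended to the low end, with a log2 fold change of −0.12 (95% interval −0.27 to 0.03, adjusted p = 0.724 by edgeR), and *P0-3.9GFPCre* overlapped *FVB/N* at −0.03.

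*Stau2* depended on the scale used. By counts, the *FVB/N* pools held 28.3, 24.7 and 25.8 CPM of *Stau2*, the *P0-3.9GFPCre* pools 26.5, 28.3 and 30.5 CPM, and the *Le-Cre* pools 25.2, 24.9 and 27.9 CPM. All lines overlapped, with a log2 fold change of 0.11 in *P0-3.9GFPCre* (95% interval −0.07 to 0.30, adjusted p = 0.837 by edgeR) and −0.01 in *Le-Cre*. On the TPM scale, the *FVB/N* pools held 12.3, 14.3 and 12.7 TPM and the *P0-3.9GFPCre* pools 16.8, 19.3 and 19.8 TPM, without overlap. The *Le-Cre* pools at 14.6, 13.9 and 18.3 TPM overlapped both. On this scale *Stau2* and *Caprin2* were the 2 of the 8 genes with every *P0-3.9GFPCre* pool above every *FVB/N* pool, and 0 were below, against 10.7% and 2.83% of all tested genes. In *Le-Cre*, *Caprin2* and *Celf1* were above *FVB/N* in TPM and 0 were below, against 7.68% and 3.96%. Between the Cre lines, *Carhsp1* was lower in *Le-Cre* and 0 were higher, against 8.24% and 4.02%.

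The scales differ in their normalization and in the transcript length that RSEM used to scale *Stau2*. On log2(TPM + 1), the median log2 fold change of all tested genes in *P0-3.9GFPCre* against *FVB/N* was 0.05. *Stau2* has 17 transcripts in the tables, and GENCODE M21 lists transcripts of 369 to 3907 bases for it. RSEM's weighted length for *Stau2* was 2489, 1907 and 2109 bases in the *FVB/N* pools, 1834, 1646 and 1719 bases in the *P0-3.9GFPCre* pools, and 1889, 2084 and 1619 bases in the *Le-Cre* pools. Every *P0-3.9GFPCre* pool thus lay below every *FVB/N* pool, as in 9.8% of the 10343 genes with a varying length, counted in either direction. The log2 difference in weighted length was −0.32 in *P0-3.9GFPCre* (95% interval −0.61 to −0.03, unadjusted p = 0.0371, adjusted p = 0.873 by limma), a difference of −19.7%. At an unadjusted p under 0.05, 5.54% of those genes passed and 0% passed after adjustment. In *Le-Cre* against *FVB/N* and against *P0-3.9GFPCre*, no length difference of the 5 genes with several transcripts had a p under 0.05 or separated the pools, where 4.53% and 6.06% of genes passed and 8.47% and 10.3% separated. With 1 fixed length per gene and the TMM normalization of CPM, *Stau2* stood at 15.1, 13.2 and 13.8 CPM per kb in *FVB/N*. In *P0-3.9GFPCre* it stood at 14.2, 15.1 and 16.3 CPM per kb, again overlapping. These values change both the length and the normalization, so the part of each was not separated. The weighted length rested on 574 to 749 single-end reads per pool, spread over 17 transcripts. For *Tdrd7*, *Celf1*, *Caprin2* and *Stau1* the log2 length difference from *FVB/N* was between −0.08 and 0.02 in either line, with overlapping pools.

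**Figure D3:**
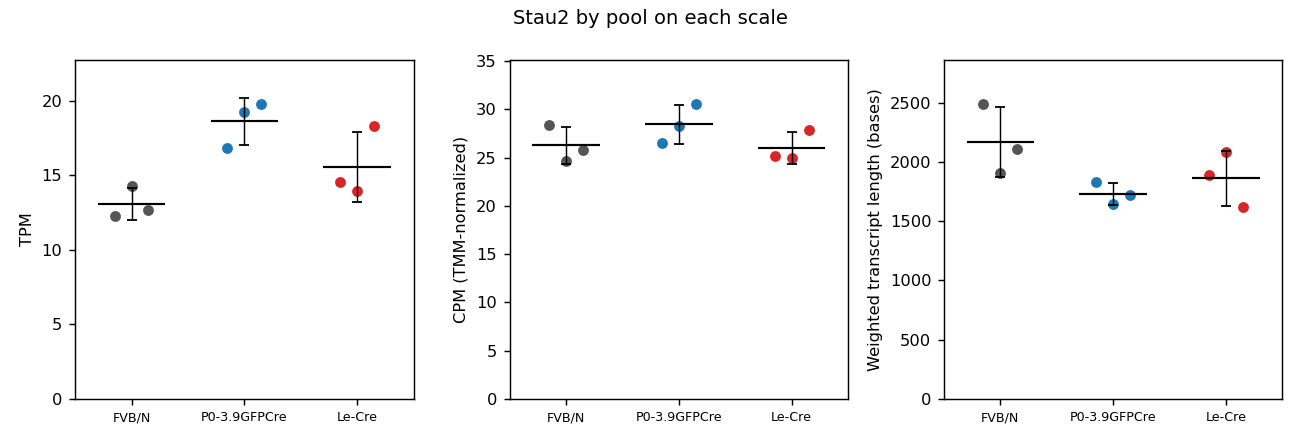
*Stau2* in each pool as TPM, as CPM and as RSEM's weighted transcript length in bases, with one dot per pool, a line at the mean and bars for the SD of 3 pools. The *P0-3.9GFPCre* dots lie above *FVB/N* in TPM (16.8 to 19.8 against 12.3 to 14.3) and below it in length (1646 to 1834 against 1907 to 2489 bases), while the CPM dots overlap.

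The ratio of *Stau1* to *Stau2* followed the same split between scales. In TPM the ratio averaged 1.69 ± 0.202 (SD, n = 3 pools) in *FVB/N*, 1.28 ± 0.103 in *P0-3.9GFPCre* and 1.33 ± 0.136 in *Le-Cre*. The ratio in every pool of either Cre line was below that in every *FVB/N* pool, in *Le-Cre* by less than 0.01, and the two-sided exact permutation p of 0.1 for each line was the smallest that 3 pools against 3 allow. In counts the ratio was 1.99 ± 0.196 in *FVB/N*, 1.78 ± 0.0507 in *P0-3.9GFPCre* and 1.84 ± 0.0260 in *Le-Cre*, with two-sided exact permutation p-values of 0.3 and 0.4 against *FVB/N*.

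The machinery around these proteins was examined through 62 further genes in 5 lists, of which 58 were tested. By edgeR at the cutoff, 0 of the 58 passed in each of the 3 comparisons. At an unadjusted p under 0.05 there were 2 in *Le-Cre* against *FVB/N* (3.45%), 0 in *P0-3.9GFPCre* against *FVB/N* and 3 in *Le-Cre* against *P0-3.9GFPCre* (5.17%), all below the shares given above for all tested genes. The 58 genes had median log2 fold changes of −0.04, −0.04 and −0.02 in the order given. In CPM, the list genes with every *Le-Cre* pool above every *FVB/N* pool were *Fmr1* and *Smg5*. Those with every *Le-Cre* pool below were *Lsm14a*, *Fxr2*, *Upf3b*, *Pura* and *Ybx1*. Of all tested genes, 6.46% lay higher and 7.03% lower without overlap.

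All 12 genes for decapping and processing bodies were tested, with a median log2 fold change of −0.09 in *Le-Cre* and −0.06 in *P0-3.9GFPCre*. *Lsm14a*, a translational repressor that binds *Ddx6* protein, had the highest mean level of this list at 31.9 TPM. *Lsm14a* was at 52.8, 50.3 and 52.1 CPM in the *FVB/N* pools and in the *Le-Cre* pools at 49.9, 44.3 and 46.4 CPM. Every *Le-Cre* pool was below every *FVB/N* pool, at a log2 fold change of −0.14 (adjusted p = 0.647 by edgeR). The *P0-3.9GFPCre* pools, at 46.7 to 50.1 CPM, were also all below *FVB/N*, at a log2 fold change of −0.08 (adjusted p = 0.848 by edgeR).

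All 12 stress granule genes were tested, with medians of −0.00049 and 0.01 on the log2 scale in *Le-Cre* and *P0-3.9GFPCre*. *Pabpc1*, the cytoplasmic poly(A)-binding protein, had the highest mean level at 1070.4 TPM, above *Tdrd7*. *Fmr1*, an RNA-binding translational regulator, was the 1 gene of the list with an unadjusted p under 0.05 in *Le-Cre*. Its level was 40.4, 33.2 and 41.2 CPM among *FVB/N* pools, against 41.7, 44.7 and 45.7 CPM among those of *Le-Cre*. The groups lay side by side without overlap, with a log2 fold change of 0.20 (adjusted p = 0.629 by edgeR), which was 0.11 without *FVB/N* replicate 2. *Caprin1*, the paralog of *Caprin2*, did not share its pattern, at 232 ± 1.06 CPM (SD, n = 3 pools) among *FVB/N* lenses, 237 ± 6.26 CPM among those of *P0-3.9GFPCre* and 233 ± 7.06 CPM among those of *Le-Cre*. The log2 fold change of *Caprin1* was 0.01 in *Le-Cre* (95% interval −0.11 to 0.12) and 0.03 in *P0-3.9GFPCre* (95% interval −0.08 to 0.15).

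All 13 genes for Staufen partners, transport and nonsense-mediated decay were tested. *Upf3b*, a decay factor bound to exon junction complexes, was the most abundant at 56.0 TPM. The *FVB/N* lenses had 111, 104 and 95.9 CPM of *Upf3b* and those of *Le-Cre* 93.9, 89.9 and 93.8 CPM, all lower, at a log2 fold change of −0.16 (adjusted p = 0.628 by edgeR). *Upf1*, the helicase that *Stau1* recruits, had its smallest p between the Cre lines, at a log2 fold change of −0.18 in *Le-Cre* (adjusted p = 0.609 by edgeR). Of the tudor domain family, 5 of 8 genes were tested, and *Tdrd1*, *Tdrd5* and *Tdrd12* were too low. *Tdrkh* was the most abundant of these at 34.0 TPM, far below *Tdrd7*, and *Snd1* had the smallest p, at a log2 fold change of −0.10 in *Le-Cre* (adjusted p = 0.786 by edgeR).

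Of 17 paralogs and other regulators of mRNA processing, 16 were tested and *Celf6* was too low. *Ybx1*, a cold-shock protein that packages mRNA, was the most abundant at 263 TPM and had the smallest p of the list, at a log2 fold change of −0.22 in *Le-Cre* against *P0-3.9GFPCre* (adjusted p = 0.516 by edgeR). *Fxr2*, from the stress granule list, also had its smallest p between the Cre lines at −0.18 on the log2 scale (adjusted p = 0.605 by edgeR). *Celf2*, the closest paralog of *Celf1*, averaged 16.1 ± 2.98 CPM (SD, n = 3 pools) among *FVB/N* pools and 17.1 ± 1.27 CPM among those of *Le-Cre*, which overlapped. In *P0-3.9GFPCre*, 3 of the 58 genes had point estimates beyond 1.5-fold with wide intervals, namely *Celf3* at 1.35, *Celf4* at −0.70 and *Tdrd6* at −0.70 on the log2 scale (edgeR adjusted p-values 0.829, 0.868 and 0.881). These 3 genes were barely detected. They averaged 0.353, 0.484 and 0.531 CPM in *FVB/N* and 0.910, 0.294 and 0.322 CPM in *P0-3.9GFPCre*, in the same order.

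**Figure D4:**
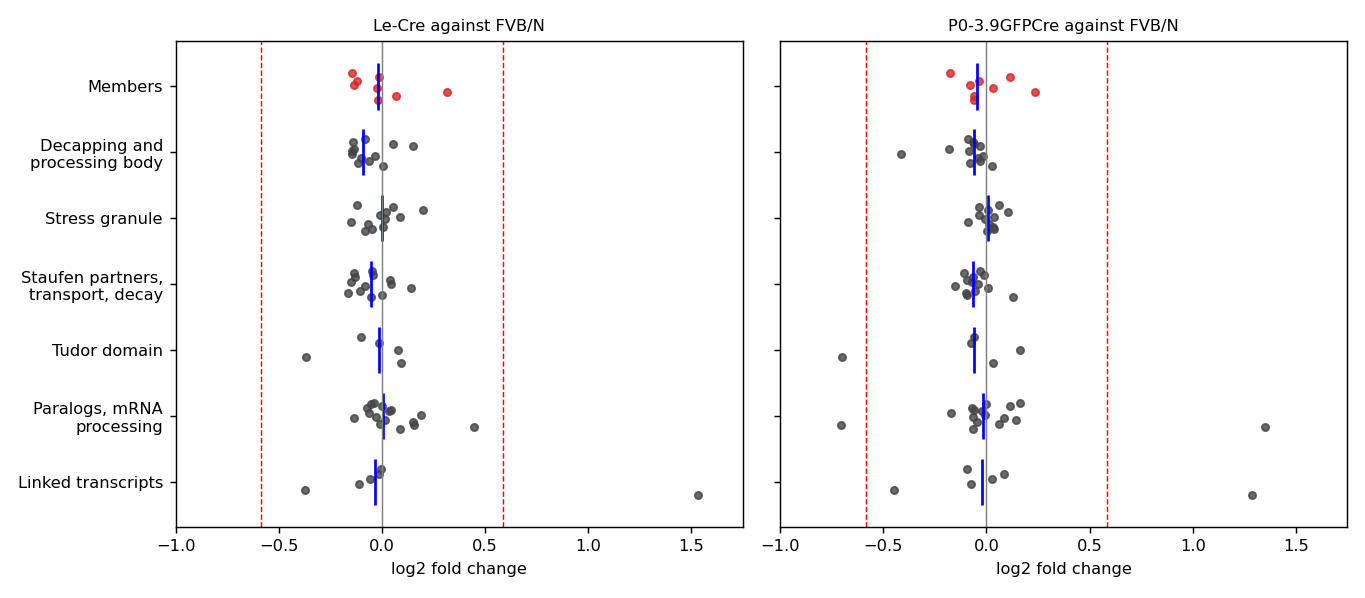
Log2 fold changes of each gene (dots) in the 8 genes ("Members"), in the 5 lists of related genes and in 6 linked transcripts, for both comparisons with *FVB/N*, with list medians as blue bars and the 1.5-fold cutoff as dashed lines. In *Le-Cre* all dots but *Hspb1* at 1.53 lie within the cutoff, and in *P0-3.9GFPCre* the dots beyond it are *Hspb1*, *Celf3*, *Celf4* and *Tdrd6*.

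Earlier loss-of-function work tied 6 transcripts to the proteins encoded by these genes. *Hspb1*, a small heat shock protein reduced in lenses without *Tdrd7*, rose in *Le-Cre*, where by edgeR it was the 1 of the 6 to pass the cutoff. *Hspb1* was at 36.0, 36.9 and 38.6 CPM in the *FVB/N* pools and in the *Le-Cre* pools at 120.04, 84.1 and 118 CPM, a log2 fold change of 1.53 (adjusted p = 0.0331 by edgeR). With 1 *FVB/N* or *Le-Cre* pool left out, that adjusted p was between 0.0522 and 0.174. In *P0-3.9GFPCre*, at 101, 62.2 and 109 CPM, all above *FVB/N*, the log2 fold change was 1.29 (adjusted p = 0.239 by edgeR). *Hspb1* ranked 1st of all tested genes by edgeR p in that comparison. The adjusted p depended strongly on the method. Over the 11 alternatives (edgeR settings, DESeq2 and limma) it ranged from 5.36e-10 to 0.561 in *P0-3.9GFPCre* and from 1.18e-12 to 0.243 in *Le-Cre*. *Dnase2b*, the nuclease that degrades fiber cell DNA and whose message *Celf1* regulates, was at 121, 131 and 147 CPM in *FVB/N*. Levels of *Dnase2b* were 109, 102 and 80.7 CPM for *P0-3.9GFPCre* and 97.3, 105 and 105 CPM for *Le-Cre*. All Cre pools lay below all *FVB/N* pools, with log2 fold changes of −0.45 and −0.37 (edgeR adjusted p-values 0.590 and 0.356, DESeq2 adjusted p-values 0.0130 and 0.0600), both under 1.5-fold. With the Y-linked share added to the model, the *Le-Cre* value was −0.22 (adjusted p = 0.954 by edgeR). The other 4 had log2 fold changes between −0.11 and 0.08 in both lines. These were the cell cycle inhibitor *Cdkn1b* and the lens transcription factors *Pax6*, *Prox1* and *Sox2*.

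The genes whose log2 CPM followed the members most closely over the 9 pools were *Cycs* for *Tdrd7* (Pearson r = 0.97), *Stambpl1* for *Caprin2* (0.97), *Cdc42bpa* for *Celf1* (0.96), *Lpin2* for *Rbm24* (0.92), *Dcaf15* for *Carhsp1* (0.96), *Gm10778* for *Stau1* (0.93), *Wash1* for *Stau2* (0.94) and *Gm27483* for *Ddx6* (0.97). These are the highest values out of all tested genes over 9 pools that share library depth and line, and are given as a description. *Cycs*, *Gm10778* and *Gm27483* were low in these lenses, at 3.93, 2.0 and 5.06 CPM. None of the nearest genes was itself among the 8 or the lists.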

How the data were processed

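The 9 RNA-Seq libraries were made from pooled whole lenses of newborns. Per the labels and methods, the authors made TruSeq libraries from oligo-dT-selected RNA, sequenced single-end for 50 cycles, trimmed reads with Trimmomatic 0.36, mapped them with GSNAP to GRCm38 and quantified genes with RSEM 1.3.0, and the strand setting and annotation are not given in the sources used here. The deposited expected counts are RSEM's unnormalized estimates, in which reads matching several genes are divided, and the uncertainty from such reads was at most 7.57 reads per pool for the 8 genes. The deposited TPM values are scaled by RSEM for length and library size, and the deposited length is weighted by the transcripts estimated in each pool. The authors' DESeq2 1.10.1 comparisons were not used.

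Expected counts were rounded and fitted in R 4.3.3 with edgeR 4.0.16 (TMM, filterByExpr, one coefficient per line over 9 pools, glmQLFit, glmQLFTest, Benjamini-Hochberg over all 15557 tested genes). Intervals are 95%. Log2 weighted length was tested with limma 3.58.1, and the *Stau1* to *Stau2* ratio with a two-sided exact permutation test. DESeq2 1.42.0 and limma on log2(TPM + 1) were alternatives. The fit was tested on simulated data. Coordinates are from GENCODE M21, which 47224 of 47729 identifiers matched, and no exon of the 8 genes overlaps another gene. Named genes are the 8, their nearest pattern, the linked transcripts and, per list, genes past the cutoff or else the highest mean TPM and the smallest p. *Fmr1*, *Caprin1*, *Celf2*, *Celf3*, *Celf4*, *Tdrd6*, *Smg5*, *Pura* and *Cdh1* were added after their values were seen, and the alternatives were extended to *Hspb1*, *Dnase2b*, *Lsm14a*, *Fmr1* and *Upf3b* after seeing the data. The 8 genes and the lists were chosen with earlier results of these data known. Groups and replicate numbers came from sample titles, and for 1 pool the description did not match the number in its title. CRE transcripts were not analysed here.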

Additional observations from a re-analysis of the deposited data

How the results depend on the processing

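The number of the 8 genes past the cutoff was 0 under all 11 alternatives and with each of the 9 pools left out, in all 3 comparisons. Over all tested genes, 10 passed in *Le-Cre* against *FVB/N*, beside 54 by DESeq2, 131 without the filter on low counts, 5 with a mean of at least 10 counts, 2 with the replicate block, 1 by limma on log2(TPM + 1) and 0 with the Y-linked share in the model. In *P0-3.9GFPCre* against *FVB/N* and between the Cre lines the count was 0, beside 93 and 123 without the filter, 4 and 38 by DESeq2, and 0 and 1 by limma on log2(TPM + 1). *Caprin2* kept its direction throughout. Its log2 fold change in *Le-Cre* against *FVB/N* ranged from 0.20 to 0.37, and its adjusted p was 0.0198 without the filter. Without the filter *Dnase2b* had adjusted p-values of 0.0202 in *Le-Cre* and 0.00321 in *P0-3.9GFPCre*. Over all alternatives and left-out pools, log2 fold changes in *Le-Cre* against *FVB/N* ranged from −0.22 to −0.080 for *Upf3b* (−0.11 without *FVB/N* replicate 1), from −0.21 to −0.10 for *Lsm14a* and from 0.11 to 0.26 for *Fmr1*. Of 480 log2 fold changes of the 8 genes under alternatives, 19 changed sign, all from values near 0, and the cause was not tested. By limma on log2(TPM + 1) these were *Tdrd7* (0.015), *Rbm24* (0.017) and *Stau2* (0.23) in *Le-Cre* against *FVB/N*, *Tdrd7* (0.036), *Celf1* (0.0058) and *Stau1* (0.11) in *P0-3.9GFPCre* against *FVB/N*, and *Tdrd7* (−0.021) between the Cre lines. *Stau2* was at 0.0025 with upper-quartile factors and *Rbm24* at 0.0025 with the Y-linked covariate, both in *Le-Cre* against *FVB/N*.

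With 1 pool left out, log2 fold changes that changed sign in *Le-Cre* against *FVB/N* were *Rbm24* (−0.092 to 0.023), *Stau2* (−0.069 to 0.046) and *Tdrd7* (−0.047 to 0.0093), in *P0-3.9GFPCre* against *FVB/N* *Rbm24* (−0.037 to 0.077) and *Stau1* (−0.063 to 0.0035), and between the Cre lines *Ddx6* (−0.011 to 0.10). Log2 length differences that changed sign were *Stau1* (−0.031 to 0.067) and *Tdrd7* (−0.048 to 0.040) in *Le-Cre*, *Caprin2* (−0.0017 to 0.027), *Celf1* (−0.0058 to 0.012) and *Stau1* (−0.16 to 0.012) in *P0-3.9GFPCre*, and *Tdrd7* (−0.023 to 0.065) between the Cre lines. That of *Stau2* in *P0-3.9GFPCre* ranged from −0.40 to −0.21, and was −0.21 without *FVB/N* replicate 1. In counts in place of TPM, the *Stau1* to *Stau2* ratio was 1.99 in *FVB/N*, 1.78 in *P0-3.9GFPCre* and 1.84 in *Le-Cre*.

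Whether replicate numbers pair the pools was not settled. Residuals of same-numbered pools correlated at 0.03 on average (−0.10 to 0.12 over 9 pairs), against −0.015 (−0.17 to 0.12 over 18 pairs) for different numbers. Correlations over 0.1 came in 3 of 9 and 1 of 18 pairs. Of the 9 pools, 5 correlated best with their own number, so weak pairing cannot be set aside. With the replicate block, *Caprin2* was at 0.32 in *Le-Cre* (adjusted p = 0.291 by edgeR) and 0.23 in *P0-3.9GFPCre*, and no gene of the 8 gained or lost a call at the 1.5-fold and adjusted p cutoff, while *Celf1* between the Cre lines had an unadjusted p of 0.0627. *Hspb1* in *Le-Cre* kept its direction at 1.08 to 1.68 and missed the cutoff by limma on log2(TPM + 1) (adjusted p = 0.0855) and with the Y-linked share in the model (adjusted p = 0.243 by edgeR). Counting error was at most 4.17% of a pool's value (*Stau2*) and covers reads only, not the spread between lenses.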
